A study of Homo sapiens with 9 samples.

Results

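SERPINE2 lies on the minus strand of chromosome 2 and encodes protease nexin-1, a secreted serpin that inhibits thrombin and other trypsin-like serine proteases outside the cell. The peaks described here are those of 6 peak lists that overlap chr2:224830000-224915000 (hg19) by at least 1 bp. This window of 85001 bp holds the gene from 224839765 to 224904036, 64272 bp long, with 10964 bp upstream of its start and 9765 bp past its end. It held 96 of the 27469 peaks of all lists, 93 of them from CDK9 and 3 from DDX21. The gene was chosen by its numbers of CDK9 peaks, which were higher with the drug A771726 than in DMSO, so these numbers and what follows from them describe the locus and are not tested.

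The peaks come from chromatin immunoprecipitation and sequencing of A375 cells, an established human melanoma line, after 24 h of treatment. The 3 CDK9 libraries came from cells given 25 µM A771726, from cells given 25 µM A771726 together with nucleotides, and from cells given DMSO, the solvent. The 3 DDX21 libraries came from the same 3 treatments. The labels name the added nucleotides no further, each antibody and treatment had 1 library, and the 3 input libraries were not used here.

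A771726 is the active metabolite of leflunomide. It blocks dihydroorotate dehydrogenase, a step in making pyrimidines from small precursors, and nucleotides supplied from outside can bypass that step. CDK9 with a cyclin T forms P-TEFb, the kinase that lets RNA polymerase II leave the pause near a gene's start and that also travels with elongating polymerase, so CDK9 can be found at starts and along transcribed gene bodies. Much of P-TEFb is held inactive in the 7SK ribonucleoprotein. DDX21 is a nucleolar RNA helicase that also binds genes read by polymerase II and can free P-TEFb from 7SK. No transcript was measured in these libraries, so nothing here says how much SERPINE2 RNA the cells made.

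The CDK9 signal of the gene was strongest next to its hg19 bound at 224904036, the start from which all distances here are counted. The promoter sequences on record for the gene are therefore shown. RefSeq (GRCh38.p14) gives 2 promoters of SERPINE2 in the table used, each from 250 bases before to 50 bases after a start and each printed on the minus strand, 5′ to 3′. The outer one is chr2:224038591-224038890 and the inner one is chr2:224031429-224031728, with starts 7162 bp apart. At that distance they cannot both lie in the first 5 kb of the gene described below. The peaks are in hg19 and no position was carried from one build to the other, so no peak is placed on a base of these sequences. Capitals mark matches on either strand to GGGCGG, the GC box bound by Sp1-type factors, in the outer promoter. In the inner one they mark the E-box CACGTG, which MITF and its relatives bind, and a variant of it with the letters CACATG.
SERPINE2 outer promoter: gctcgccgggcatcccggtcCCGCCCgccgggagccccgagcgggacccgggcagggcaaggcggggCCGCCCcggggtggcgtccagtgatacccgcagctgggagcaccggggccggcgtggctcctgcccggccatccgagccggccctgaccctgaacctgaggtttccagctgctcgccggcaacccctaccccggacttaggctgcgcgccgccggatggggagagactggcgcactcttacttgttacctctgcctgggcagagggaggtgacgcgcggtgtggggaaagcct
SERPINE2 inner promoter: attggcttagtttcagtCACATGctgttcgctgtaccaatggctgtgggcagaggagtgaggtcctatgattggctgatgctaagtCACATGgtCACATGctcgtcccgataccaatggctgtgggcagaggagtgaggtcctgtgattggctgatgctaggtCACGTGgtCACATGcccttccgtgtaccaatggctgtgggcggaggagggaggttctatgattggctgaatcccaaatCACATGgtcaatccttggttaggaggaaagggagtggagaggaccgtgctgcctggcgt
The outer promoter was 73.7% G and C, against a median of 58.7% over all 35116 promoters of the table. It held 2 GC boxes, and 26.7% of all promoters held at least as many. It held no E-box of either form, no CCAAT, which is the box bound by NF-Y, and no TATA box, searched as TATAAA. The inner promoter was 54% G and C. It held 5 matches to the E-box variant, and 0.0171% of all promoters held at least as many, beside 1 match to the E-box itself, which 7.26% of promoters held. It also held 7 CCAAT boxes, and 0.0228% of all promoters held at least as many. It held 1 GC box, which 44.95% of promoters held, and no TATA box. Part of the inner promoter is repeated: the run taccaatggctgtgggc, with a CCAAT box in it, starts at positions 34, 111 and 188 of the printed sequence. CACATG stands shortly before each copy. The counts of the E-box variant and of CCAAT are therefore not independent of each other or of the repeat. The motifs were chosen with the sequence in view, and a match is a description of letters, not of a bound site.

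CDK9 peaks over SERPINE2 numbered 40 with A771726, 22 with A771726 and nucleotides, and 31 in DMSO. The bases they covered followed another order, with 6441 bp with A771726, 5236 bp with nucleotides and 6710 bp in DMSO. With A771726 the gene therefore had more peaks and slightly fewer covered bases than in DMSO. The peaks had a median width of 95.5 bp with A771726, 168 bp with nucleotides and 179 bp in DMSO. The widest was 1281 bp with A771726, 878 bp with nucleotides and 924 bp in DMSO.

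The 3 CDK9 lists were not on an equal footing. The shortest peak of the whole list was 50 bp with A771726, 129 bp with nucleotides and 128 bp in DMSO, and 24 of the 40 SERPINE2 peaks with A771726 were narrower than 128 bp. Counting the peaks of at least 128 bp turned the order round, to 16 with A771726, 22 with nucleotides and 31 in DMSO. Joining peaks that lay within 200 bp of each other left 30 stretches with A771726, 19 with nucleotides and 24 in DMSO, and joining those within 1 kb left 17 with A771726, 12 with nucleotides and 13 in DMSO. Peaks with a −log10 q of at least 5 numbered 13 with A771726, 9 with nucleotides and 12 in DMSO, where q is the false discovery rate the peak caller gives. Covered bases changed order too. Those of peaks of at least 128 bp came to 4700 bp with A771726, 5236 bp with nucleotides and 6710 bp in DMSO, so A771726 had the fewest. Those of peaks with a −log10 q of at least 5 came to 3864 bp with A771726, 3066 bp with nucleotides and 3314 bp in DMSO, so A771726 had the most. With short peaks widened to 129 bp, A771726 also had the most, at 7796 bp, beside 5236 bp with nucleotides and 6713 bp in DMSO.

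**Figure D1:**
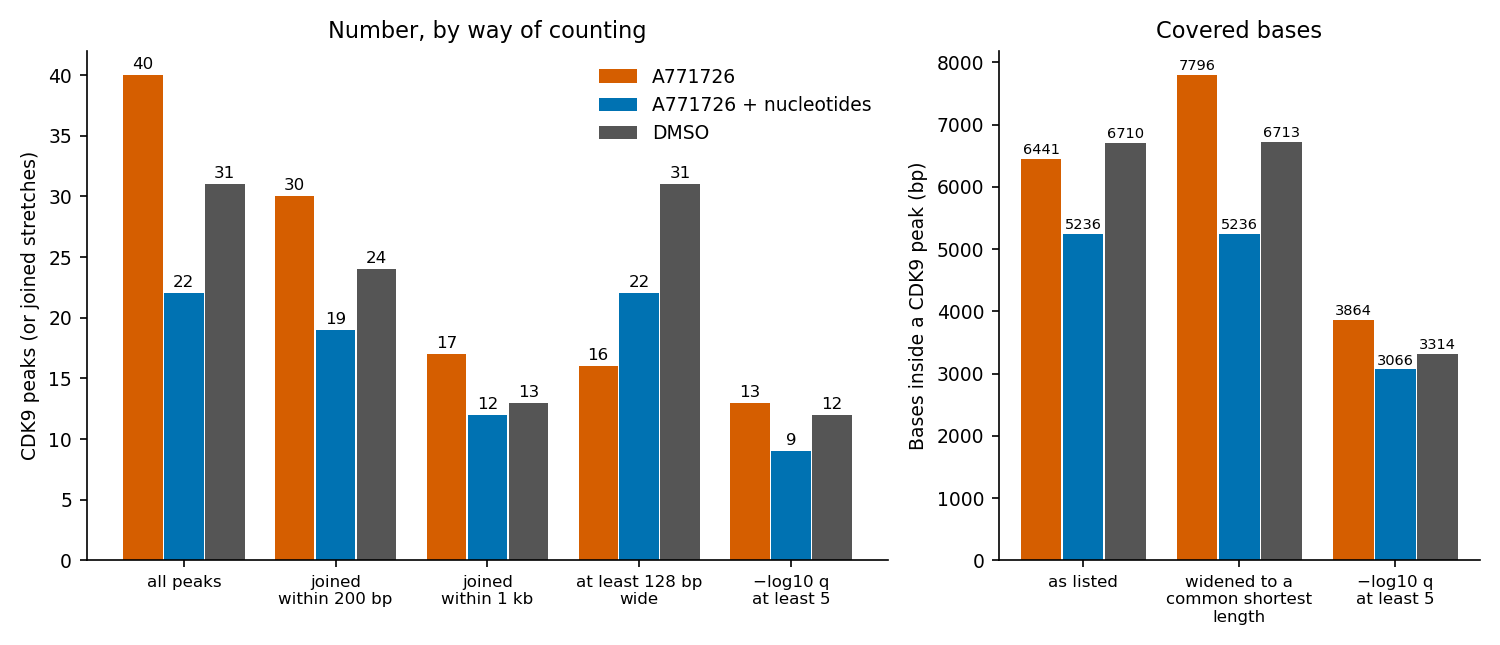
CDK9 peaks (left) and bases inside CDK9 peaks (right) over SERPINE2 under several ways of counting, with 1 library per bar. With A771726 the gene has the highest number of peaks when all peaks are counted (40, against 22 with nucleotides and 31 in DMSO) and the lowest among peaks of at least 128 bp (16, against 22 with nucleotides and 31 in DMSO).

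Set beside the lists they come from, the SERPINE2 peaks were a larger share of the A771726 list than of the other CDK9 lists. They made up 13.8% of the A771726 list (40 of 290 peaks, exact binomial 95% interval 10.04 to 18.3), 0.710% of the list with nucleotides (22 of 3099, 0.445 to 1.07) and 0.895% of the DMSO list (31 of 3462, 0.609 to 1.27). By covered bases the shares were 16.4% with A771726, 0.681% with nucleotides and 0.807% in DMSO. Over the rest of the genome the A771726 list covered 3.97% of the bases of the DMSO list, 32764 bp against 825077 bp, and over SERPINE2 it covered 96.0%. That last share counts peaks narrower than any of the DMSO list. Among peaks of at least 128 bp, SERPINE2 had 4700 bp with A771726 against 6710 bp in DMSO. The list with nucleotides covered 92.5% of the DMSO bases over the rest and 78.0% over SERPINE2. The gene was chosen for having more A771726 than DMSO peaks, which itself raises its A771726 shares above the rest, so nothing is read from them. The intervals cover counting error only, and with 1 library per treatment no difference could be set against a spread between replicates.

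Along the gene, all 3 CDK9 lists were densest in the first 5 kb. There, peaks covered 52.6% of the bases with A771726, 51.2% with nucleotides and 43.4% in DMSO. Counted by their summits, these were 6 peaks with A771726, 6 with nucleotides and 7 in DMSO. Between 5 and 20 kb the covered share was 10.2% with A771726 (12 peaks), 4.21% with nucleotides (4 peaks) and 9.87% in DMSO (8 peaks). Between 20 and 40 kb it was 5.50% with A771726 (11 peaks), 10.2% with nucleotides (12 peaks) and 10.8% in DMSO (12 peaks). Past the first 5 kb, then, each list held scattered short peaks and no stretch as dense as the start.

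The far part of the gene held peaks mainly in the A771726 list, and most of these were narrow. From 40 kb to the gene end, a stretch of 24272 bp, A771726 had 9 CDK9 peaks over 875 bp, the list with nucleotides had none, and DMSO had 1 peak of 138 bp. Of the 9 peaks, 7 were narrower than 128 bp, a width that the other CDK9 lists did not hold. Among peaks of at least 128 bp there were 2 with A771726, none with nucleotides and 1 in DMSO. The 9 peaks ran from chr2:224846418-224846487, with its summit 57585 bp into the gene, to chr2:224861040-224861148, 42957 bp into the gene. Their fold enrichments, which the peak caller gives as summit signal over local background, reached at most 6.70, and their median −log10 q was 3.19, below the 4.02 of all SERPINE2 peaks of that list. None of the 9 reached a −log10 q of 5. The DMSO peak in this stretch, chr2:224849600-224849737, was the lowest of the DMSO list at SERPINE2, with a −log10 q of 2.07. The last summit inside the gene lay 39024 bp from the start with nucleotides.

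Outside the gene, upstream peaks were few. With A771726, 2 peaks lay just upstream of the start, chr2:224904173-224904419, with a fold enrichment of 7.12 and its summit 244 bp away, and chr2:224904606-224904659, with 5.64. The list with nucleotides had none there, and DMSO had 1, chr2:224906946-224907328, with 3.97. Past the gene end, A771726 and nucleotides had no CDK9 peak and DMSO had 2, chr2:224836877-224837007 and chr2:224837407-224837647, with fold enrichments of 4.22 and 5.64. These are also the outermost members: the nearest CDK9 peak outside the window lay 36.4 kb beyond its upstream edge with A771726 (fold enrichment 8.16), 35.0 kb with nucleotides (6.05) and 35.1 kb in DMSO (8.10).

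**Figure D2:**
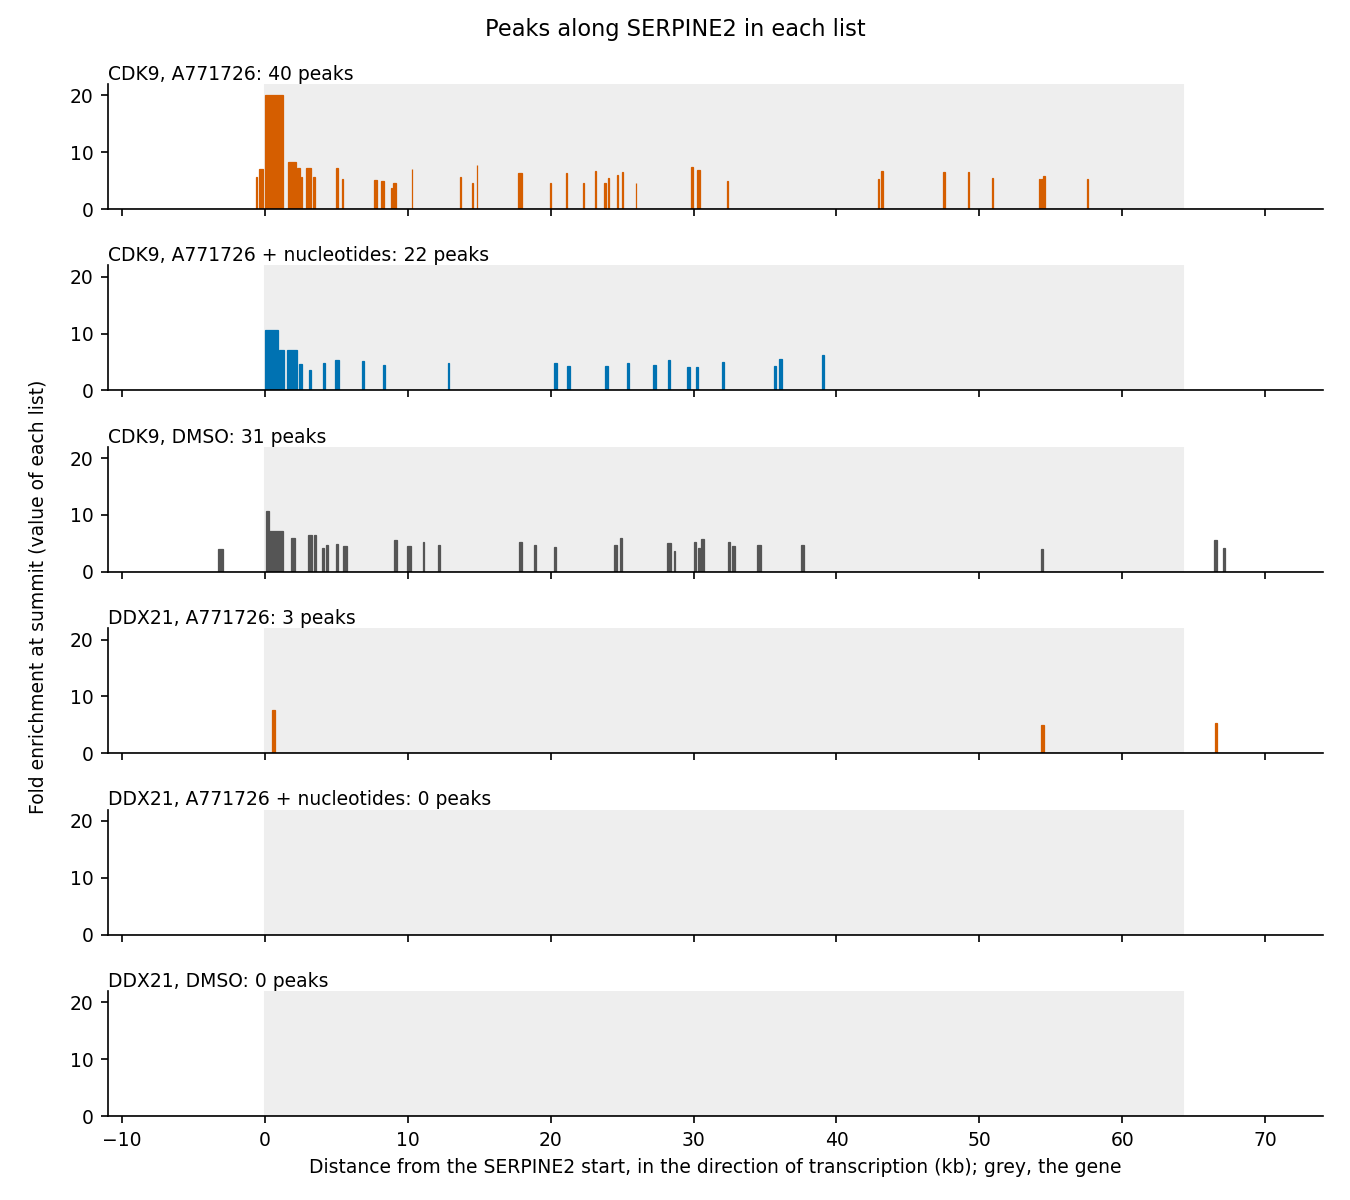
Every peak of the 6 lists in the window, placed by distance from the SERPINE2 start in kb, with bar width its length and bar height its fold enrichment as its own list gives it. The gene is shaded, and bars of different lists are not on a common scale of enrichment. Peaks crowd the start in the 3 CDK9 lists, 9 of the A771726 list lie beyond 40 kb (2 of them at least 128 bp wide), and DDX21 has peaks with A771726 alone.

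**Figure D3:**
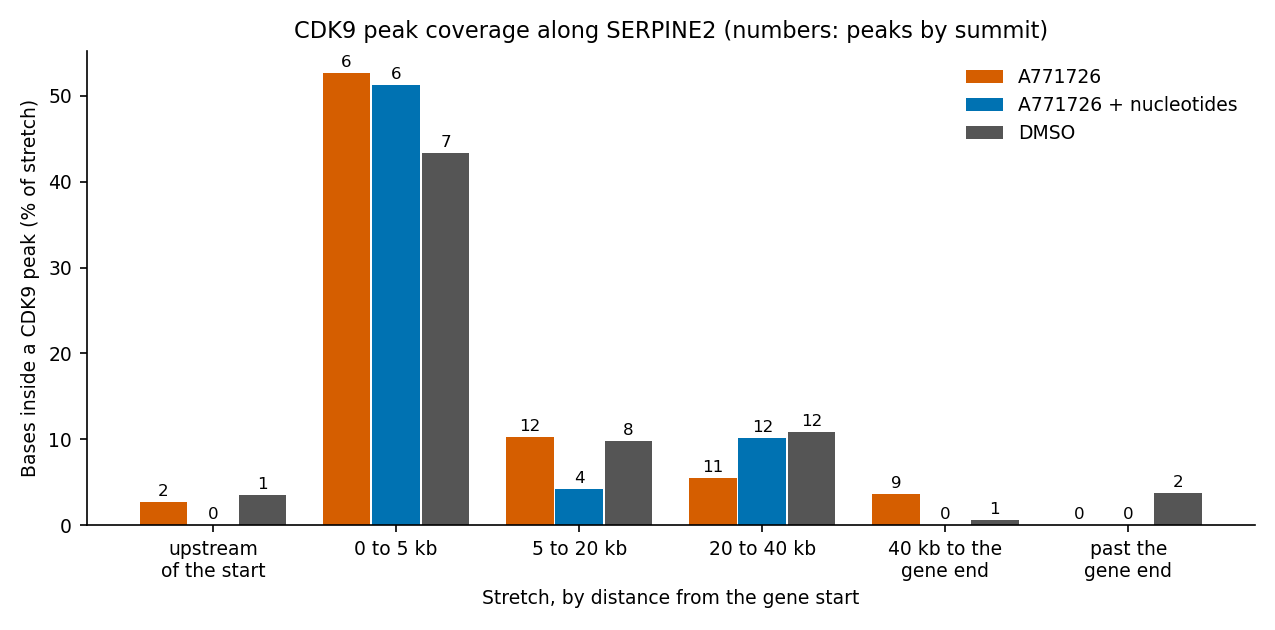
Share of bases inside a CDK9 peak in 6 stretches of the window, by treatment, with the number of peak summits above each bar. The first 5 kb are covered by 52.6% with A771726, 51.2% with nucleotides and 43.4% in DMSO, and the stretch from 40 kb to the gene end by 3.60% with A771726, 0% with nucleotides and 0.569% in DMSO.

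The strongest CDK9 peak of the gene lay at the start in each list. With A771726 it was chr2:224902751-224904031, 1281 bp wide, with a fold enrichment of 20.1 and rank 2 of 290 by −log10 q. With nucleotides it was chr2:224903136-224904013, 878 bp wide, with 10.7 and rank 18 of 3099. In DMSO it was chr2:224903766-224903975, 210 bp wide, with 10.8 and rank 71 of 3462. The summits lay 122 bp into the gene with A771726, 111 bp with nucleotides and 184 bp in DMSO. The stretch that A771726 covered with 1 peak was split both in DMSO and with nucleotides. The other peak in DMSO, chr2:224902779-224903702, was the widest of the DMSO list at the gene, with a fold enrichment of 7.19 and its summit 924 bp in. The other peak with nucleotides was chr2:224902656-224903036. Fold enrichments and ranks place a peak within its own list and are not compared in size between lists.

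Ranked by −log10 q, the 3 leading peaks of each list were in the first 5 kb. After the strongest, those with A771726 were chr2:224901875-224902441, with a fold enrichment of 8.27, and chr2:224900821-224901115, with 7.15. Those with nucleotides were chr2:224901778-224902473 and chr2:224902656-224903036, with 7.18 and 7.15. In DMSO the third was chr2:224900747-224901035, with 6.40. Ranked by fold enrichment, peaks further in stood above the third of these with A771726. Among them were chr2:224889151-224889216, with 7.67 and its summit 14853 bp into the gene, and chr2:224874084-224874223, with 7.40 and its summit 29840 bp in.

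The summit pileup, the number of fragments stacked over a peak's summit, follows from a peak's fold enrichment and −log10 p. At the start it was 39 fragments over a background of 0.991 with A771726, 54 over 4.16 with nucleotides and 36 over 2.43 in DMSO. Over all SERPINE2 peaks it had a range of 8 to 39 with a median of 12.5 with A771726, 11 to 54 with a median of 16 with nucleotides, and 10 to 36 with a median of 15 in DMSO. Of the 93 CDK9 peaks of the gene, 90 had at most 25 fragments, and the lowest pileup called anywhere was 8 with A771726, 8 with nucleotides and 9 in DMSO. Pileups are given side by side and not compared, since the lists differ in their shortest peak and in their background.

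The median local background at the SERPINE2 peaks was below that of each list. It was 1.10 with A771726, 2.53 with nucleotides and 2.36 in DMSO. The lowest background of the whole list was 0.521 with A771726, 1.24 with nucleotides and 1.17 in DMSO. As a multiple of that lowest value, the background at the SERPINE2 peaks had a median of 2.12 with A771726, 2.04 with nucleotides and 2.02 in DMSO. Over the whole lists the median was 3.19 with A771726, 3.90 with nucleotides and 3.55 in DMSO. Single peaks differed: 6 of the 40 peaks with A771726 were above their list's median, at up to 6.37, as were none of the 22 with nucleotides and 1 of the 31 in DMSO, at 4.74.

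Overlaps between the CDK9 lists at SERPINE2 are given beside the same shares over the whole lists. Of the 40 SERPINE2 peaks with A771726, 13 overlapped a DMSO peak, or 32.5% (18.6 to 49.1), where the share over the whole A771726 list was 77.6% and over the list without SERPINE2 it was 84.8% (79.7 to 89.0). The 27 others were 41.5% of the 65 CDK9 peaks with A771726 that overlapped no DMSO peak anywhere. Against the list with nucleotides the share was 22.5% (10.8 to 38.5), or 9 peaks, beside 76.6% of the whole list. The gene was chosen for having more A771726 than DMSO peaks, which itself lowers the share of A771726 peaks that can lie on a DMSO peak, so nothing is read from these low shares.

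From the side of the longer lists the same locus stood high. Of the 31 SERPINE2 peaks in DMSO, 14 overlapped an A771726 peak, or 45.2% (27.3 to 64.0), beside 5.4% of the whole DMSO list. Of the 22 with nucleotides, 9 overlapped an A771726 peak, or 40.9% (20.7 to 63.6), beside 5.74%. That choice raises these shares, and nothing is read from them either. Between the 2 lists of similar length, 9 of the 22 peaks with nucleotides lay on a DMSO peak, or 40.9% (20.7 to 63.6) beside 50.6%, and 9 of the 31 DMSO peaks lay on a peak with nucleotides, or 29.0% (14.2 to 48.0) beside 45.2%. Both intervals include the share of the whole list. They take neighbouring peaks of the same gene as independent, so nothing is read from this.

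Shared bases are set beside the share of each part that peaks covered, since denser coverage alone gives more shared bases. In the first 5 kb, A771726 and DMSO peaks shared 1745 bp, which was 66.3% of the A771726 coverage there and 80.5% of the DMSO coverage. In the rest of the window they shared 715 bp, or 18.8% of the A771726 coverage and 15.7% of the DMSO coverage. DMSO peaks covered 43.4% of the first 5 kb and 5.68% of the rest, so the share of A771726 coverage inside DMSO peaks was 1.53 times the DMSO coverage at the start and 3.30 times in the rest. Bases shared by the list with nucleotides and DMSO were 58.4% of the first's coverage and 69.0% of the DMSO coverage in the first 5 kb, and 16.3% and 9.62% of them in the rest. Bases shared by the list with nucleotides and A771726 alone were 80.5% of the coverage with nucleotides and 78.4% of that with A771726 in the first 5 kb, and 12.4% and 8.71% of them in the rest. As a multiple of the second list's coverage of the part, the shared share of the list with nucleotides was 1.35 against DMSO and 1.53 against A771726 in the first 5 kb, and 2.88 against DMSO and 2.61 against A771726 in the rest. The shares were thus higher at the start for each pair. Their multiples of the coverage were higher in the rest, but dense coverage caps them at the start. DMSO peaks covered 43.4% of the first 5 kb and A771726 peaks 52.6%, so even complete overlap would give a low multiple there. The multiples are therefore not compared between the start and the rest. All 3 lists together covered 13147 bp of the window, of which 1546 bp, or 11.8%, were in a peak of each.

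Overlaps with both other lists were counted in the window only, so no share over the whole lists stands beside them. The choice of the gene bears on these counts too, and nothing is read from them. Of the A771726 peaks, 5 overlapped both a DMSO peak and a peak with nucleotides, 8 a DMSO peak alone, 4 a peak with nucleotides alone, and 23 neither. Of the peaks with nucleotides, 6 overlapped both other lists and 10 neither. Of the DMSO peaks, 5 overlapped both and 13 neither. Of the 9 A771726 peaks beyond 40 kb, 1 overlapped a DMSO peak and none overlapped a peak with nucleotides.

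Wide peaks overlapped more often, at SERPINE2 and elsewhere. Among A771726 peaks of at least 128 bp, 8 of the 16 at SERPINE2 overlapped a DMSO peak, or 50% (24.7 to 75.3), and 77 of the 80 elsewhere did, or 96.2% (89.4 to 99.2). The choice of the gene bears on this share as well, and the part of peak width in the low overlap was not tested.

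DDX21 had peaks at SERPINE2 with A771726 alone. That list held 3 there, and the lists with nucleotides and of DMSO held none. The whole DDX21 lists held 4375 peaks with A771726, 7922 with nucleotides and 8321 in DMSO. The strongest, chr2:224903342-224903534, lay at the start, with its summit 596 bp into the gene, a fold enrichment of 7.55 and a pileup of 23 fragments. The second, chr2:224837440-224837555, lay past the gene end, with a fold enrichment of 5.24 and 13 fragments. This peak was 116 bp wide, while the shortest DDX21 peak was 131 bp with nucleotides and 128 bp in DMSO. Without it the A771726 list held 2 peaks in the window. The third, chr2:224849528-224849714, lay 54414 bp into the gene, with 5.01 and 14 fragments. All 3 were low in their list, with ranks of 3207, 4138 and 4142, and fold enrichments under its median of 9.31.

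These 3 peaks overlapped CDK9 peaks. Each overlapped a CDK9 DMSO peak, which 8.55% of the DDX21 peaks with A771726 did. The peak at the start and the one deep in the gene also overlapped CDK9 peaks with A771726, which 0.96% of that list did, and the peak past the gene end did not. The one deep in the gene touched 2 CDK9 peaks, chr2:224849465-224849560 and chr2:224849618-224849709. At the start, the DDX21 summit was 474 bp further into the gene than the CDK9 summit with A771726. The gene was chosen for its CDK9 peaks, which itself makes such overlaps likelier here than over the whole list. Nothing is read from them.

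None of the 3 overlapped a DDX21 peak in DMSO, and such peaks were rare, at 30 of 4375, or 0.686% of the list. SERPINE2 thus held 10% of them, counting the peak of 116 bp that is narrower than any of the DMSO list. Likewise none overlapped a peak with nucleotides, as was so for 33, or 0.754%, of the list. The nearest DDX21 site outside the window had a peak in all 3 lists. It lay 17.5 kb past the gene end, at chr2:224821989-224822299 with A771726. Its summit pileup was 71 fragments over a background of 2.40 with A771726, 145 over 3.62 with nucleotides and 155 over 7.20 in DMSO. The fold enrichments there were 21.2 with A771726, 31.6 with nucleotides and 19.0 in DMSO. Neither pileups nor fold enrichments are compared in size between lists.

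From the side of CDK9, 3 of the 40 SERPINE2 peaks with A771726 overlapped a DDX21 peak of the same treatment, or 7.50% (1.57 to 20.4), beside 15.5% of the list. With nucleotides none of 22 did (0 to 15.4), beside 13.6%, and in DMSO none of 31 did (0 to 11.2), beside 17.8%. Most CDK9 peaks of each whole list were without a DDX21 peak too. With nucleotides and in DMSO the window held no DDX21 peak that a CDK9 peak could overlap. Those counts were therefore fixed, and nothing is read from them or their intervals. With A771726 the interval at the gene includes the share of the list.

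SERPINE2 was set beside the CDK9 clusters with the next most A771726 peaks, a cluster being a run of at least 5 peaks of the 3 lists together with gaps of at most 10 kb. Of 238 clusters, 3 tied with 8 A771726 peaks: chr3:149286425-149321548, chr11:65264806-65275434 and chr17:57906633-57920914. Bases covered with A771726 were 20.4% of those in DMSO in the cluster on chromosome 3 (1113 bp against 5460 bp), 15.2% on chromosome 11 (1039 bp against 6815 bp) and 18.4% on chromosome 17 (914 bp against 4954 bp), where SERPINE2 had 96.0%. With nucleotides the covered bases were 94.5% of those in DMSO on chromosome 3, 91.9% on chromosome 11 and 86.4% on chromosome 17, where SERPINE2 had 78.0%. Of the 8 A771726 peaks of each cluster, 7 lay on a DMSO peak on chromosome 3, 7 on chromosome 11 and 8 on chromosome 17, where 13 of 40 did at SERPINE2.

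Median widths of A771726 peaks were 98.5 bp in the cluster on chromosome 3, 120 bp on chromosome 11 and 91.5 bp on chromosome 17, beside 95.5 bp at SERPINE2. In DMSO they were 212 bp on chromosome 3, 394 bp on chromosome 11 and 345 bp on chromosome 17, beside 179 bp at SERPINE2. The narrow peaks of the A771726 list were thus common to the 4 loci, and the DMSO peaks of SERPINE2 were the narrowest of the 4. In all, 9 of the 238 clusters had more A771726 than DMSO peaks, and the other 8 held at most 5 A771726 peaks each. All 4 loci were picked for their A771726 peaks, so these values describe them and test nothing.

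**Figure D4:**
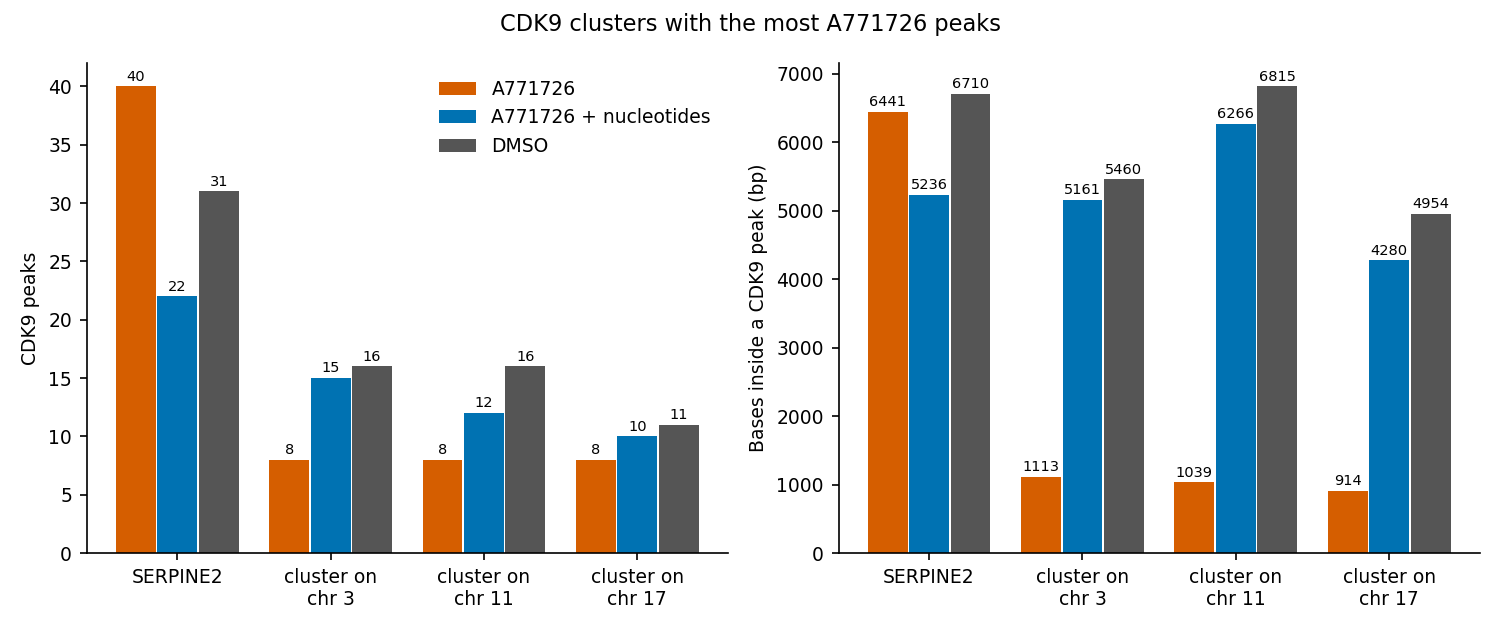
CDK9 peaks (left) and bases inside CDK9 peaks (right) at SERPINE2 and at the 3 clusters with the next most A771726 peaks, by treatment, with 1 library per bar. Bases covered with A771726 are 6441 bp at SERPINE2 and 914 to 1113 bp at the other clusters, against 6710 bp and 4954 to 6815 bp in DMSO.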

How the data were processed

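Per the submitters' processing notes, Bowtie, MACS2 2.0 and the build hg19 were used. Parameters and the control behind each list are not known here. Per peak, each deposited list holds a position, a fold enrichment (ratio to local background), a −log10 p and a −log10 q, by the authors' peak caller, from 1 library. The deposited score was not used further. Read totals are unknown.

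The gene's hg19 bounds came with the rule for choosing the peaks. Pileup and background were solved from fold = (pileup + 1)/(background + 1) and a Poisson tail, and 100% of peaks had a whole-number solution, with a tolerance of 0.001 on −log10 p. That step and the overlaps were tested on simulated data. Overlap means at least 1 bp. Intervals are Clopper-Pearson 95% and take peaks as independent, which neighbouring peaks of the same gene need not be. No p-value was computed, as groups had 1 library. Python 3.11.15, pandas 2.3.3 and scipy 1.17.1 were used.

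The gene, stretches and comparisons were chosen with earlier results of these data known. By a fixed rule the text names, per list, the 3 surest peaks, the peak nearest the start, the widest peak, and all peaks of lists with at most 5 in the window; peaks beyond 40 kb and outside the gene were chosen after their values were seen. The tie of 3 clusters was kept whole. Widening short peaks and leaving out the first 5 kb were alternatives added later.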

Additional observations from a re-analysis of the deposited data

How the results depend on the processing

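Of 99 alternatives to 15 values, 78 of them planned, 36 could not move: 26 belong to DDX21 values listed at 0, and 10 left the peaks they started from as they were. Of the other 63, 40 stayed within 1.5 times the value reported or, for a share, within its 95% interval, and 23 moved. With a −log10 q of at least 5, CDK9 peaks numbered 13 with A771726, 9 with nucleotides and 12 in DMSO and covered 3864 bp with A771726, 3066 bp with nucleotides and 3314 bp in DMSO, so A771726 had the most covered bases, and DDX21 with A771726 kept 1 peak of 193 bp. Without peaks under 128 bp, A771726 had 16 CDK9 peaks, fewer than DMSO with 31, over 4700 bp, and 50% of them lay on a DMSO peak. Peaks joined within 1 kb gave 17 stretches with A771726, 12 with nucleotides and 13 in DMSO. With the top 290 peaks of each CDK9 list, A771726 kept its 40 peaks by construction, nucleotides kept 1 peak of 878 bp and DMSO 1 of 210 bp; that DMSO peak overlapped both other lists (100%), and 2.5% of A771726 peaks lay on it. Widening short peaks to 129 bp gave 7796 bp with A771726, 5236 bp with nucleotides and 6713 bp in DMSO, which also put A771726 above DMSO. Without the first 5 kb, coverage was 3811 bp for CDK9 with A771726, 2674 bp with nucleotides and 4542 bp in DMSO, and 303 bp for DDX21 with A771726. The order of covered bases between A771726 and DMSO therefore depends on the setting. No paired analysis was possible because each group had 1 library and the labels give no replicate numbers. Depth is unknown, and with 1 library per treatment the spread of peak positions between replicate libraries was not measured.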
